A study of Mus musculus with 3 samples.

Results

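Chromatin accessibility was mapped over 36 genes of the cadherin superfamily in whole brain of C57BL6 mice. The genes are 20 cadherins (Cdh), 10 protocadherins outside the protocadherin clusters (Pcdh) and 6 Fat and Dachsous (Dchs) genes, among 21631 protein-coding genes. They were taken as listed by name, and every member was found in the RefSeq gene table of GRCm38.p6, the build also called mm10. The study used single-cell ATAC-seq with combinatorial indexing (3 libraries), in which the transposase Tn5 places barcoded adapters into open chromatin of nuclei. Nuclei were tagmented in plates of 96 wells and given a further barcode by PCR in chips of 5184 nanowells. The 3 groups are the preparations sciATACv3, sciATACv2 and sciATACv1 (v3, v2 and v1), each with 1 library. All 3 share the strain, the tissue and the nanowell PCR, while the sources used here do not say how the versions differ, how many animals were used, or of what age and sex.

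The data are lists of accessible regions (peaks) with a start and an end and no height or read count, so sequencing depth is unknown. The v3 list held 512023 peaks, the v2 list 850991 and the v1 list 622754, with median widths of 726, 500 and 500 bp. Peak numbers therefore depend on the length of a library's list, and between libraries a gene is compared by its share of a library's peaks. With 1 library per version there is no replicate spread and no test between versions; the 95% intervals given cover counting error only, and neighbouring peaks are not independent draws. A peak in a whole-brain list shows that some nuclei were open there, so fewer cells of a type and less open chromatin per cell cannot be told apart. All 8 brain marker genes (among them Snap25 of neurons, Mbp of oligodendrocytes and Aqp4 of astrocytes) were open, with a peak no more than 1 kb from 1 or both ends of the gene, in each library, against 6 of 8 markers of other tissues. Of all protein-coding genes, 80.6%, 84.8% and 81% had such a peak in v3, v2 and v1, so these counts tell little about the tissue. The brain markers had median densities of 0.430, 0.620 and 0.515 peaks per kb of gene window in v3, v2 and v1, and the other markers 0.161, 0.381 and 0.173. The skin keratin gene Krt5 had 2, 0 and 0 peaks in v3, v2 and v1, while another of these markers, Vil1, had 14, 21 and 16. Above the median density of coding genes of like length lay 6, 8 and 8 of the brain markers and 2, 3 and 3 of the others.

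Cadherins are calcium-dependent adhesion molecules whose extracellular repeats bind cadherins of the facing cell, most often of the same kind. Classical cadherins of type I and type II hold the actin cytoskeleton through catenins, and in the brain their different combinations mark nuclei, layers and circuits. Protocadherins have other cytoplasmic tails and act in weaker adhesion and in signalling at axons and dendrites, while the very large Fat and Dachsous proteins bind one another across cells and set planar polarity and tissue growth. Cadherin-23 and protocadherin-15 are the exception in function, since they join as the tip link of hair cells in the inner ear.

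Nearly all members had a peak close to an end of the gene span, and nearly all with a listed start had one close to it. Either end counts in the first case, so it need not be the start. The percentages over coding genes were not matched for length. At 1 or both ends of the gene span, 35 of 36 members had a peak no more than 1 kb away in v3, 35 in v2 and 36 in v1, against 80.6%, 84.8% and 81% of protein-coding genes. The exception in v3 and v2 was Pcdh9, a delta-1 protocadherin gene, whose listed transcription start lies 877 kb into a span of 879.1 kb, within peaks of all 3 libraries. RefSeq promoter entries, which give the strand and the start, were found for 24 of the 36 members. Of these, 23 had a peak within 1 kb of a listed start in each library, against 76.6%, 81.7% and 77% of protein-coding genes with an entry. A peak lay directly over a listed start in 23 members in v3, 22 in v2 and 21 in v1, against 71.5%, 76.2% and 70.9%.

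The member without a peak at its listed start was Fat2, a gene known from the parallel fibres of cerebellar granule cells. The nearest peak lay 11504 bp away in v3, 1668 bp in v2 and 1019 bp in v1. This listed start lies 61.65 kb from the low-coordinate end of a span of 86.9 kb. Both ends of the span had a peak in each library, including the high-coordinate end, where a gene on the - strand begins. At Fat4, the receptor of Dachsous-1, the v3 peak covered the listed start, while the nearest v2 and v1 peaks began 64 and 124 bp from it. At Cdh23 the v3 and v2 peaks covered the start and the nearest v1 peak lay 497 bp away. Only these 3 of the 24 genes lacked a peak over the start in some library.

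The 250 bases before the listed start are printed for 5 members. They were chosen to show how different the open promoters were, and to set beside them the listed start of Fat2, which no peak covered. They run 5′ to 3′ on the gene's strand and come from RefSeq (GRCm38.p6), with each CpG, the dinucleotide that is dense in CpG island promoters, in capitals. Pcdh10 (chr3:45378148-45378397, + strand) and Pcdh17 (chr14:84443313-84443562, + strand) hold 22 and 21 CpGs and lie in the widest shared regions of any member. Cdh10 (chr15:18820079-18820328, + strand) holds 2 and Cdh18 (chr15:23036213-23036462, + strand) 8, and both were under a peak in every library. Fat2 (chr11:55312258-55312507, - strand) holds 3. The listed start of Fat2 lies within the gene, so these bases need not be those before its outermost start.
Pcdh10 promoter: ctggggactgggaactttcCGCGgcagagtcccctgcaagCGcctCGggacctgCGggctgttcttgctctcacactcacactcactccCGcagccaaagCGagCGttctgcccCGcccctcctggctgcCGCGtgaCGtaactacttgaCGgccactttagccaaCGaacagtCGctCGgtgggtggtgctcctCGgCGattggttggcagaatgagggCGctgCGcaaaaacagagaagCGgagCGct
Pcdh17 promoter: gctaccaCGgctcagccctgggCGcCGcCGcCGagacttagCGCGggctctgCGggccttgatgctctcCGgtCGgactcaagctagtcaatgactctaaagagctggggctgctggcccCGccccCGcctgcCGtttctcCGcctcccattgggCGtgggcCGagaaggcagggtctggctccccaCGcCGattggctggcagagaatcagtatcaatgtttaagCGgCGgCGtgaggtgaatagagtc
Cdh10 promoter: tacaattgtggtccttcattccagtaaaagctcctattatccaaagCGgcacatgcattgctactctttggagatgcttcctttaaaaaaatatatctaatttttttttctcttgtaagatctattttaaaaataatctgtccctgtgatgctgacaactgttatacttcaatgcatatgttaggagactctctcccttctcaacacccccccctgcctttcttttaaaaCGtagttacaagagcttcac
Cdh18 promoter: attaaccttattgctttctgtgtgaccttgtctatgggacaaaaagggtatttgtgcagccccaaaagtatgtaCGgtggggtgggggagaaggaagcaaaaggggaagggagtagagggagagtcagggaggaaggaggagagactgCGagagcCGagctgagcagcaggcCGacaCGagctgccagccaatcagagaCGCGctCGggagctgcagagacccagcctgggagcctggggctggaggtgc
Fat2 promoter: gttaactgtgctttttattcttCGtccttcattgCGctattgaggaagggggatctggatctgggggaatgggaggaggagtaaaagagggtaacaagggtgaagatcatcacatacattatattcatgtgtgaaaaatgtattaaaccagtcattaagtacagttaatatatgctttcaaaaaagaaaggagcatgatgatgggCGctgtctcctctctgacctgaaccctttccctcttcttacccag

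Starts with few CpGs were open in some members. Over all 21045 listed promoters of protein-coding genes, the median number of CpGs in the 250 bases was 15, 14 and 15 where a v3, v2 or v1 peak covered the start, and 2 in each library where none did. The 27 member promoters (some genes have several) had a median of 10 CpGs, equal to the median of 10 over all promoters. Among the CpG-poor ones, Cdh10 and Fat1 with 2 CpGs each, and Pcdh20 with 3, were covered in all 3 libraries. The listed start of Fat1 lies 17.11 kb into its span and that of Cdh18 487.6 kb. That of Fat2, on the - strand, lies 61.65 kb from the low-coordinate end of a span of 86.9 kb. These are starts within genes and need not be their outermost ones. CpG-rich starts at Cdh22 (30 CpGs), Fat3 (27) and Pcdh18 (23) were covered as well. The E-box CAGGTG, searched on both strands (CAGGTG or CACCTG), occurred in 4 of the 27 member promoters, or 14.8%, against 17.05% of all promoters.

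Over the whole gene, protocadherins had the highest median density of the 3 classes. A gene window is the span with 5 kb on each side. The median density of the 10 protocadherins was 0.449 peaks per kb of window in v3, 0.571 in v2 and 0.506 in v1. The 20 cadherins had 0.309, 0.503 and 0.413, the 6 Fat and Dchs genes 0.301, 0.469 and 0.401, and all protein-coding genes 0.266, 0.426 and 0.2965. Density also depends on length: the medians over coding genes were 0.218, 0.354 and 0.242 peaks per kb for windows up to 30 kb and 0.358, 0.548 and 0.442 for windows of 300 to 600 kb. Set against genes of like length, 8 of 10 protocadherins, 5 of 20 cadherins and 1 of 6 Fat and Dchs genes lay above the median in all 3 libraries, a side taken by 36.1% of all coding genes. Below it in all 3 libraries lay 1 protocadherin, 9 cadherins and 2 Fat and Dchs genes, against 37.2% of coding genes. The 8 protocadherins above the median include Pcdh12, where 5 of 9, 9 of 19 and 8 of 12 peaks touched the neighbouring genes Dele1 and Rnf14. The 16 classical cadherins alone had median densities of 0.331, 0.529 and 0.465, with 5 above and 6 below in all 3 libraries.

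**Figure D1:**
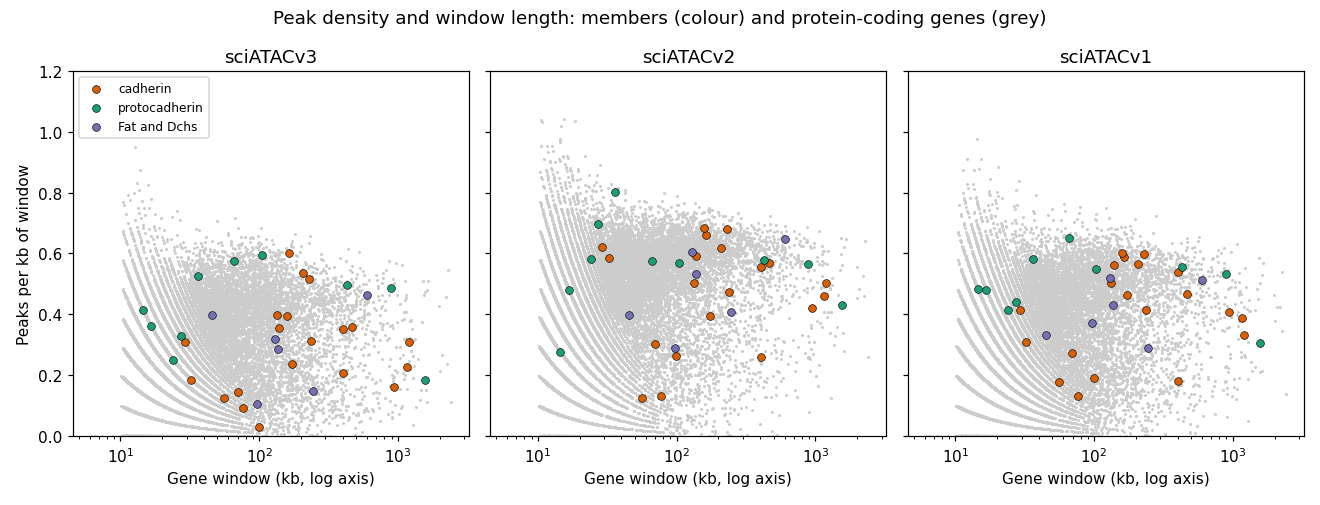
Peaks per kb of window against window length (log axis) for v3, v2 and v1; grey points are protein-coding genes and coloured points the 36 members. Of the protocadherins, 8 of 10 lie above the median of their length in all 3 libraries and Pcdh15, at the far right, lies below, while cadherins spread from the top of the grey cloud to its floor.

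Summed over windows, protocadherins and cadherins stood closer together. Protocadherins had 1.19 times the peaks per kb of the cadherins in v3 (95% interval 1.10 to 1.28), 1.05 times in v2 (0.988 to 1.12) and 1.05 times in v1 (0.979 to 1.12). Against the 16 classical cadherins alone the ratios were 1.17, 1.02 and 0.9502. Fat and Dchs genes had 1.18 (1.06 to 1.31), 1.14 (1.05 to 1.24) and 1.09 (0.994 to 1.196) times the cadherins' density. Against the classical cadherins alone these ratios were 1.162 (1.04 to 1.297), 1.107 (1.015 to 1.206) and 0.991 (0.901 to 1.089). The ratios to all cadherins changed without Cdh13, Pcdh15 and Fat3, the longest of each class. Protocadherins then had 1.75, 1.21 and 1.28 times the cadherins' density and Fat and Dchs genes 0.785, 0.958 and 0.895 times.

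Among the type I cadherins, Cdh2 (chr18:16588877-16809246) had the highest density on average. N-cadherin, its product, is the classical cadherin of neural tissue. Its window held 119 peaks in v3, 157 in v2 and 138 in v1, or 0.517, 0.682 and 0.599 peaks per kb, above 95.01%, 96.3% and 96.7% of protein-coding genes. Cdh4, the gene of the retinal R-cadherin, held 167, 265 and 218 peaks over a longer window of 467 kb. The epithelial gene Cdh1 (E-cadherin) held 7, 10 and 10 peaks, and Cdh3 (P-cadherin, of placenta and epithelia) 7, 7 and 10. Their densities, 0.0910, 0.130 and 0.130 peaks per kb for Cdh1 and 0.125, 0.125 and 0.178 for Cdh3, ranked low among coding genes, at percentiles 20.1, 16.8 and 23.6 for Cdh1 and 24.6, 16.6 and 30.55 for Cdh3. Both genes still had a peak at an end in every library. Cdh15, the gene of the muscle M-cadherin, held 9, 18 and 12 peaks in 29.0 kb. At 0.310, 0.620 and 0.4135 peaks per kb, Cdh15 was not sparse. The medians of coding genes of like length were 0.218, 0.354 and 0.242.

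The type II cadherins are mostly genes of brain regions and circuits, and held 0.0301 (Cdh19) to 0.5998 (Cdh11) peaks per kb in v3. Cdh11 (chr8:102632095-102785493), also known from osteoblasts, was the densest cadherin on average, with 98, 108 and 96 peaks in v3, v2 and v1 and 0.5998, 0.661 and 0.5875 peaks per kb. Within type II, Cdh10 followed with 111, 128 and 117 peaks and Cdh6 with 62, 108 and 95. Peaks covered 61.2% of the Cdh11 window in v3, 54.7% in v2 and 44.8% in v1, against medians of 34.6%, 44.6% and 31.55% for coding genes of like length. Cdh9, whose product acts at hippocampal mossy fibre synapses, held 49, 82 and 78 peaks, and Cdh8 held 141, 224 and 217. Cdh20 and Cdh22 held 74, 112 and 98 peaks and 53, 67 and 67. Cdh7, with 41, 68 and 80 peaks, was the type II member with more peaks in v1 than in v2, although the v1 list is shorter.

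The 2 longest type II genes had many peaks, and few per kb in v3. Cdh12 (chr15:20448878-21598421) held 261 peaks in v3, 532 in v2 and 450 in v1 over 1160 kb, and Cdh18 (chr15:22548898-23477491) held 150, 394 and 383 over 938.6 kb. In v3 the densities of Cdh12 and Cdh18 were 0.225 and 0.160 peaks per kb, against a median of 0.3165 for coding genes of over 600 kb. In v2 they were 0.459 and 0.420, against 0.516, and in v1, at 0.388 and 0.408, they lay close under the median of 0.4105. Cdh19 (chr1:110888002-110977601), a cadherin gene of Schwann cells and their precursors, was the emptiest member in v3, with 3 peaks in v3, 26 in v2 and 19 in v1. Its v3 peaks covered 1.74% of the window, against 15.9% in v2 and 11.3% in v1.

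Of the atypical cadherins, Cdh13, which encodes the membrane-anchored T-cadherin, held the most peaks of the cadherin genes on average, and fewer than Cdh12 in v1, with 368, 601 and 397 in v3, v2 and v1. Its density of 0.308, 0.503 and 0.332 peaks per kb was below the median of coding genes of over 600 kb in each library (0.3165, 0.516 and 0.4105). The kidney gene Cdh16 held 6, 19 and 10 peaks, of which 2, 4 and 2 touched the neighbouring genes Pdp2 and Rrad. The intestinal gene Cdh17 held 10, 21 and 19. Cdh23 (chr10:60302748-60696513) held 83, 104 and 73 peaks in a window of 403.8 kb, and 38, 49 and 37 of them touched the spans of Psap, Vsir or Gm17455. At 0.206, 0.258 and 0.181 peaks per kb, Cdh23 was sparse in all 3 libraries even with the peaks of those genes counted.

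**Figure D2:**
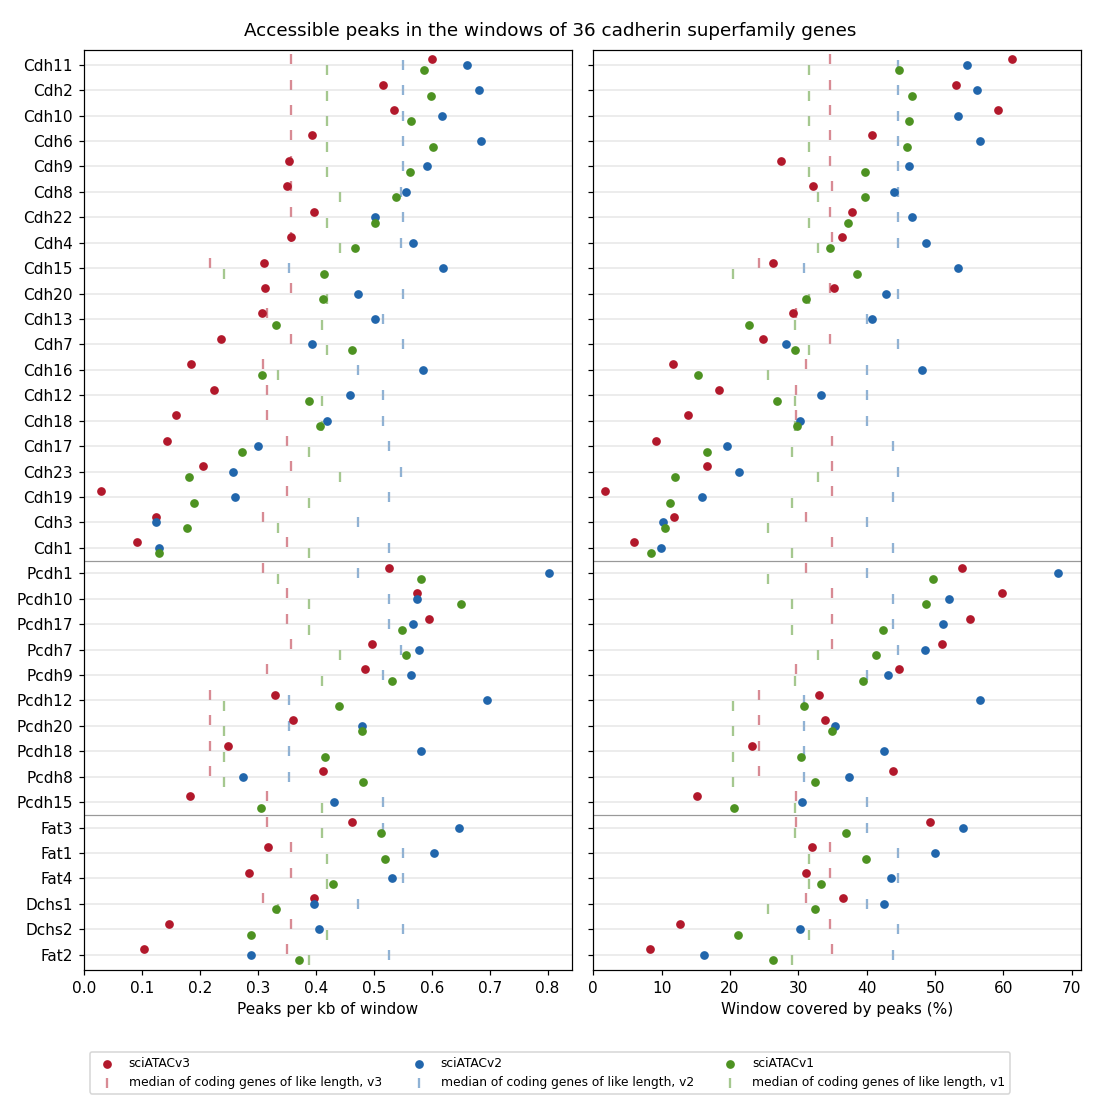
Peaks per kb of window (left) and percentage of the window covered by peaks (right) for each member in v3, v2 and v1; ticks mark the median of protein-coding genes in the same class of window length. Members run from dense to sparse within cadherins, protocadherins, and Fat and Dchs genes, from Cdh11 at the top to Cdh1, from Pcdh1 to Pcdh15 and from Fat3 to Fat2.

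The delta-1 members Pcdh1, Pcdh7 and Pcdh9 lay above the median density of coding genes of like length in every library. Pcdh1 (chr18:38185914-38212048) held 19 peaks in v3, 29 in v2 and 21 in v1 in a window of 36.1 kb, and its 0.526, 0.8025 and 0.581 peaks per kb exceeded 95.7%, 99.5% and 95.4% of coding genes. Pcdh9 (chr14:93013700-93892834) held 431, 502 and 472 peaks and Pcdh7 held 212, 247 and 237. At 0.485, 0.565 and 0.531 peaks per kb, Pcdh9 exceeded 91.9%, 78.2% and 90.3% of coding genes over a window of 889.1 kb.

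Of the delta-2 kind, Pcdh10 and Pcdh17 stood out. Pcdh10, a gene of axon growth in the forebrain, held 38, 38 and 43 peaks in v3, v2 and v1, or 0.574, 0.574 and 0.650 per kb. Pcdh17, which acts in circuits of cortex and basal ganglia, held 62, 59 and 57, most in v3 although that list is the shortest. Their starts lay in the 2 widest regions shared by all libraries in any member window, 6194 bp at Pcdh10 (chr3:45375742-45381935) and 6126 bp at Pcdh17 (chr14:84442566-84448691). The promoters printed above for both genes are inside them. Pcdh18 held 6, 14 and 10 peaks, and Pcdh8, the activity-regulated gene of arcadlin, 6, 4 and 7 in a window of 14.5 kb. A region of 4511 bp, shared by all libraries, covered the Pcdh8 start and most of its span of 4.541 kb.

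The remaining protocadherins differed. Pcdh12, an endothelial gene, held 9, 19 and 12 peaks, of which 5, 9 and 8 touched the neighbours Dele1 and Rnf14. Pcdh20 held 6, 8 and 8. Pcdh15 (chr10:73096277-74649831), the tip-link partner of Cdh23, is the longest member with a window of 1564 kb and held 285 peaks in v3, 674 in v2 and 479 in v1. It was the least dense protocadherin on average, at 0.182, 0.431 and 0.306 peaks per kb. This was below the median of coding genes of over 600 kb in each library (0.3165, 0.516 and 0.4105).

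Among the Fat and Dchs genes, Fat3 (chr9:15910189-16502681), known from the shaping of dendrites in the retina, was the densest on average, with 279 peaks in v3, 390 in v2 and 309 in v1 (0.463, 0.647 and 0.513 per kb). Fat1 held 41, 78 and 67 peaks and Fat4 held 39, 73 and 59. The ligand genes Dchs1 and Dchs2 held 18, 18 and 15 peaks (2, 2 and 2 of them on the neighbour Tpp1) and 36, 100 and 71 peaks. Fat2 (chr11:55250609-55337505) held 10, 28 and 36 peaks, 0.103, 0.289 and 0.3715 per kb, and thus fewest in v3 and most in v1.

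Of the 32 members with at least 30 peaks summed over libraries, 22 had a lower share in v2 than in v1, as did 61.2% of coding genes. Their median log2 ratio was -0.24, against -0.09 over the 9711 coding genes with that many peaks. All 36 windows together took 0.627% of the v2 peaks and 0.721% of the v1 peaks, a ratio of 0.869 (0.835 to 0.904). All 20 cadherins stood at 0.863 (0.819 to 0.910), close to the protocadherins at 0.867 (0.8055 to 0.9325). The 16 classical cadherins alone stood at 0.808 (0.761 to 0.858) and the Fat and Dchs genes at 0.903 (0.806 to 1.01). More than 1.5-fold lower in v2 were 3 members, Fat2 at 0.569 (0.335 to 0.959), Cdh7 at 0.622 (0.4435 to 0.870) and Pcdh10 at 0.647 (0.407 to 1.02), against 2.98% of coding genes. More than 1.5-fold higher was no member (1 among peaks wider than 500 bp), against 6.66% of coding genes. The highest were Cdh16 at 1.39 (0.615 to 3.35), Pcdh12 at 1.16 (0.534 to 2.62) and Cdh13 at 1.11 (0.974 to 1.26).

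Between v3 and v1 the protocadherins held a share ratio of 0.9705 (0.895 to 1.05). All 20 cadherins stood at 0.855 (0.805 to 0.908) and the 16 classical ones alone at 0.7875 (0.735 to 0.844). The Fat and Dchs genes stood at 0.924 (0.812 to 1.05). Without Fat3 the last ratio was 0.706, and without Pcdh15 that of the protocadherins was 1.107. The differences between classes were not tested. The median log2 ratio was 0.11 over the 8 protocadherins with at least 30 peaks, -0.23 over the 18 such cadherins, -0.37 over the 6 Fat and Dchs genes, of which 4 were lower, and 0.09 over coding genes. More than 1.5-fold lower in v3 were 6 members, against 4.47% of coding genes. These were Cdh19 at 0.192 (0.0364 to 0.652, from 3 and 19 peaks), Fat2 at 0.338 (0.1495 to 0.695), Cdh18 at 0.476 (0.392 to 0.577), Dchs2 at 0.617 (0.401 to 0.9335), Cdh7 at 0.623 (0.417 to 0.919) and Cdh17 at 0.640 (0.266 to 1.45). Among peaks wider than 500 bp, 11 members were more than 1.5-fold lower and 1 higher. No member was more than 1.5-fold higher in v3, against 10.6% of coding genes. Dchs1 came closest at 1.46 (0.695 to 3.11), followed by Cdh23 at 1.38 (0.9975 to 1.92) and Pcdh17 at 1.32 (0.908 to 1.93). The comparisons with v1 share its list, so a member low in v2 and in v3 against v1 does not give independent observations.

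Between v3 and v2, 17 members had a higher and 15 a lower share in v3, while 68.6% of coding genes had a higher and 31.4% a lower one. The pooled share ratio was 1.12 (1.035 to 1.21) for protocadherins and 1.02 (0.904 to 1.16) for Fat and Dchs genes. It was 0.991 (0.9345 to 1.05) for all 20 cadherins and 0.974 (0.911 to 1.04) for the 16 classical ones. Pooled ratios are not on the scale of a median log2 ratio over genes. With at least 30 peaks, that median was 0.32 over 8 protocadherins, of which 5 were higher. It was 0.01 over 18 cadherins, -0.18 over 6 Fat and Dchs genes and 0.19 over coding genes. More than 1.5-fold higher in v3 were Pcdh17 at 1.75 (1.203 to 2.54), Pcdh10 and Dchs1 at 1.66 each (1.03 to 2.68 and 0.816 to 3.39) and Cdh11 at 1.51 (1.135 to 2.001), 4 of 32 against 10.8% of coding genes. Among peaks wider than 500 bp no member passed that fold. More than 1.5-fold lower in v3 were 5 members, against 5.76%. Besides Cdh19 at 0.192 (0.03715 to 0.626, from 3 and 26 peaks), these were Cdh16 at 0.525 (0.172 to 1.37), Fat2 at 0.594 (0.257 to 1.26), Dchs2 at 0.598 (0.397 to 0.884) and Cdh18 at 0.633 (0.521 to 0.766). The long delta-1 genes Pcdh7 and Pcdh9 both stood at 1.43 (1.18 to 1.72 and 1.25 to 1.63), while the still longer Pcdh15 stood at 0.703 (0.610 to 0.808).

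**Figure D3:**
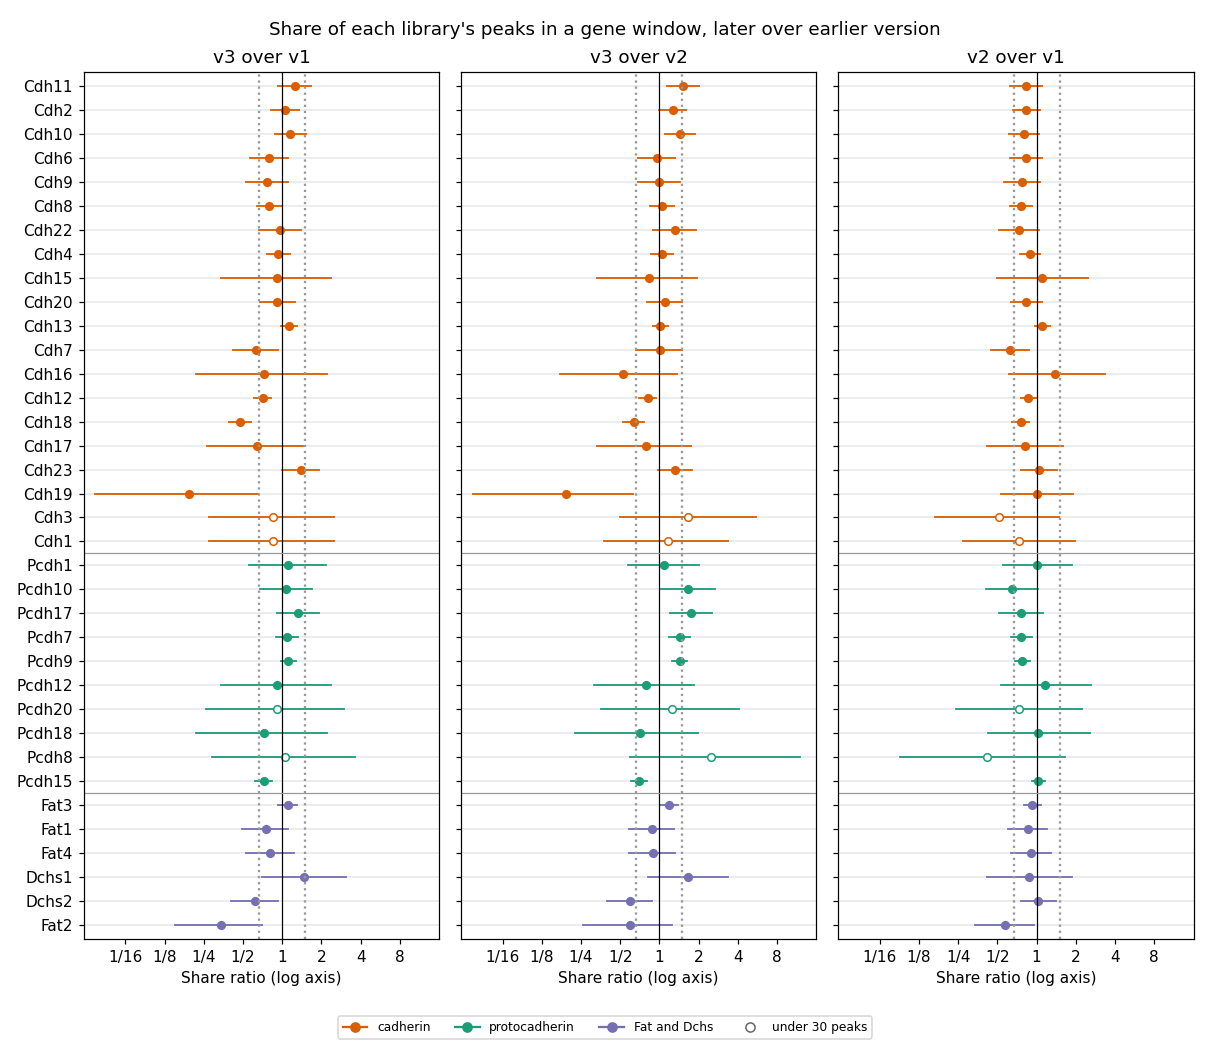
Ratio of each member's share of peaks, later version over earlier version, on a log axis with 95% counting intervals; dotted lines mark 1.5-fold and open points members under 30 peaks. Cdh19, Fat2 and Cdh18 lie to the left in both comparisons of v3, and most members lie left of 1 in v2 over v1.

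The peaks of the 3 lists merged into 5081 regions in the member windows. Of these, 43.1% (41.7 to 44.5) had a peak in all 3 libraries, against 46.6% of the regions in all protein-coding windows. The share was 41.1% in cadherins, 45.6% in protocadherins and 46.2% in Fat and Dchs genes. Regions with a peak in v2 and v1 and none in v3 made up 20.6% in member windows and 13.15% in coding windows. Cdh12, Cdh18 and Pcdh15 supplied 557 of these 1047 regions. The comparisons with coding windows were not matched for length. In coding genes with at least 20 regions, the median in all 3 libraries was 42.37% for windows over 600 kb. It was 48.65% for windows of 60 to 120 kb. The medians in v2 and v1 without v3 were 16.3% and 9.6%. Of the 27 members with at least 20 regions, 12 exceeded the median in all 3 libraries of coding genes of like length.

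Single members with at least 20 regions ranged from 76.6% to 10% of regions in all 3 libraries. Cdh10 had the highest share among members with at least 20 regions, with 82 of 107 regions in all 3 libraries (76.6%, 67.5 to 84.3), a percentage above that of 98.8% of the 6287 coding genes with at least 20 regions. Pcdh10 had 25 of 35 (71.4%, 53.7 to 85.4) and Cdh2 had 90 of 132 (68.2%, 59.5 to 76.0). At the other end Cdh19 had 3 of 30 (10%, 2.11 to 26.5), Cdh16 had 4 of 22 (18.2%, 5.19 to 40.3) and Fat2 had 9 of 40 (22.5%, 10.8 to 38.45). The other members with at least 20 regions lay between these. For Cdh18, 170 of 415 regions (41.0%) were in v2 and v1 without v3, against a median of 16.3% over the 158 coding genes with windows over 600 kb. The share was 36.7% in Cdh19, 35.8% in Cdh7 and 34.85% in Cdh12, and 11.2% in Pcdh9. Fat2 had 14 of 40 regions in v1 alone, while Fat3 had 2 of 313.

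**Figure D4:**
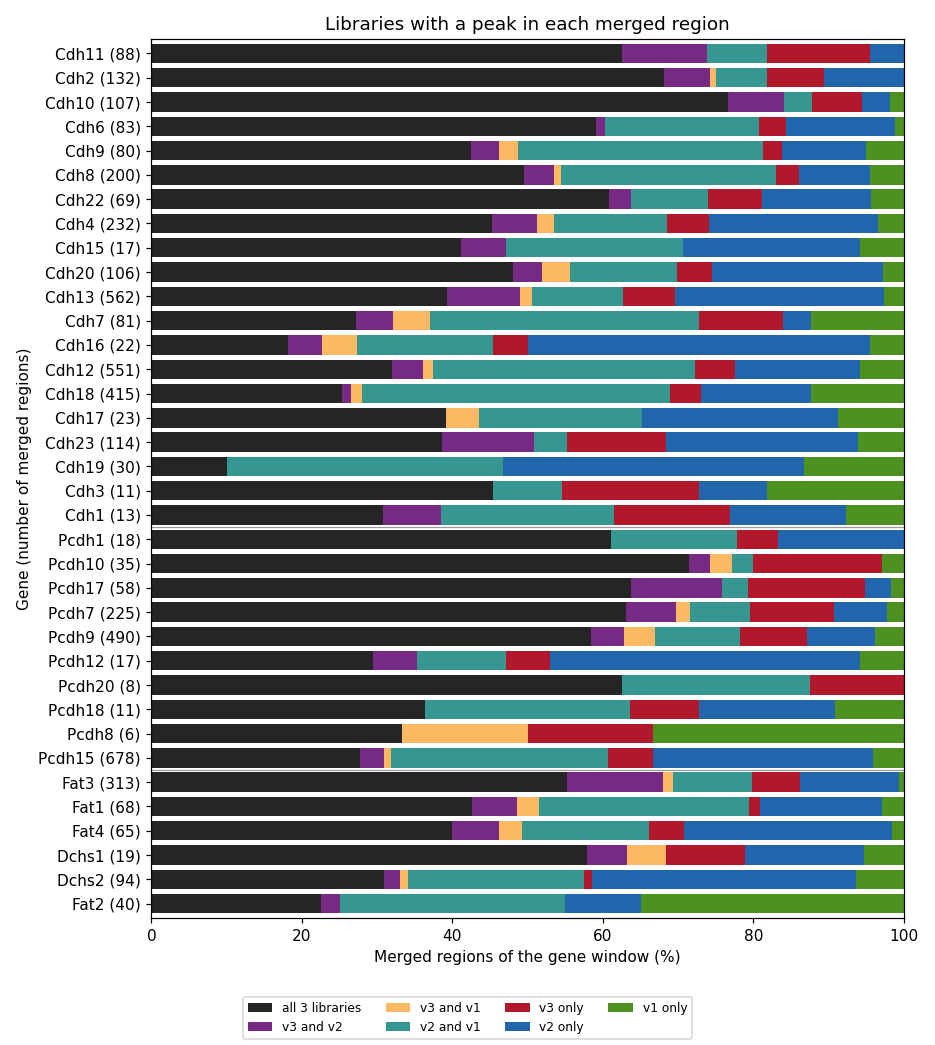
Percentage of each member's merged regions by the libraries with a peak there; the number of regions is in brackets. The part in all 3 libraries is widest in Cdh10 and Pcdh10, and the part in v2 and v1 alone is wide in Cdh18, Cdh19, Cdh7 and Cdh12.

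Along the longest genes the low v3 numbers were unevenly placed. In stretches of 100 kb from the low-coordinate end of the Cdh18 span, the v3 list held 5 to 13 peaks in each of the first 5 stretches, 35 in the sixth, 28 in the seventh and 14 in each of the last 2. The sixth begins at 500 kb, just past the listed start at 487.6 kb. The v2 list held 24 to 43 and the v1 list 22 to 37 in those first 5 stretches, against 52 and 61 in the sixth. In Cdh12, whose listed start lies at 662.6 kb, the v3 stretches held 17 to 36 peaks, the v2 stretches 41 to 52 and the v1 stretches 31 to 45. Pcdh15 ranged from 9 to 37 in v3, 34 to 59 in v2 and 13 to 40 in v1. Its emptiest stretch ran from 1400 to 1500 kb, with 9, 34 and 13 peaks. Pcdh9 was more even, with 40 to 55 peaks per stretch in v3, 46 to 64 in v2 and 44 to 60 in v1.

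**Figure D5:**
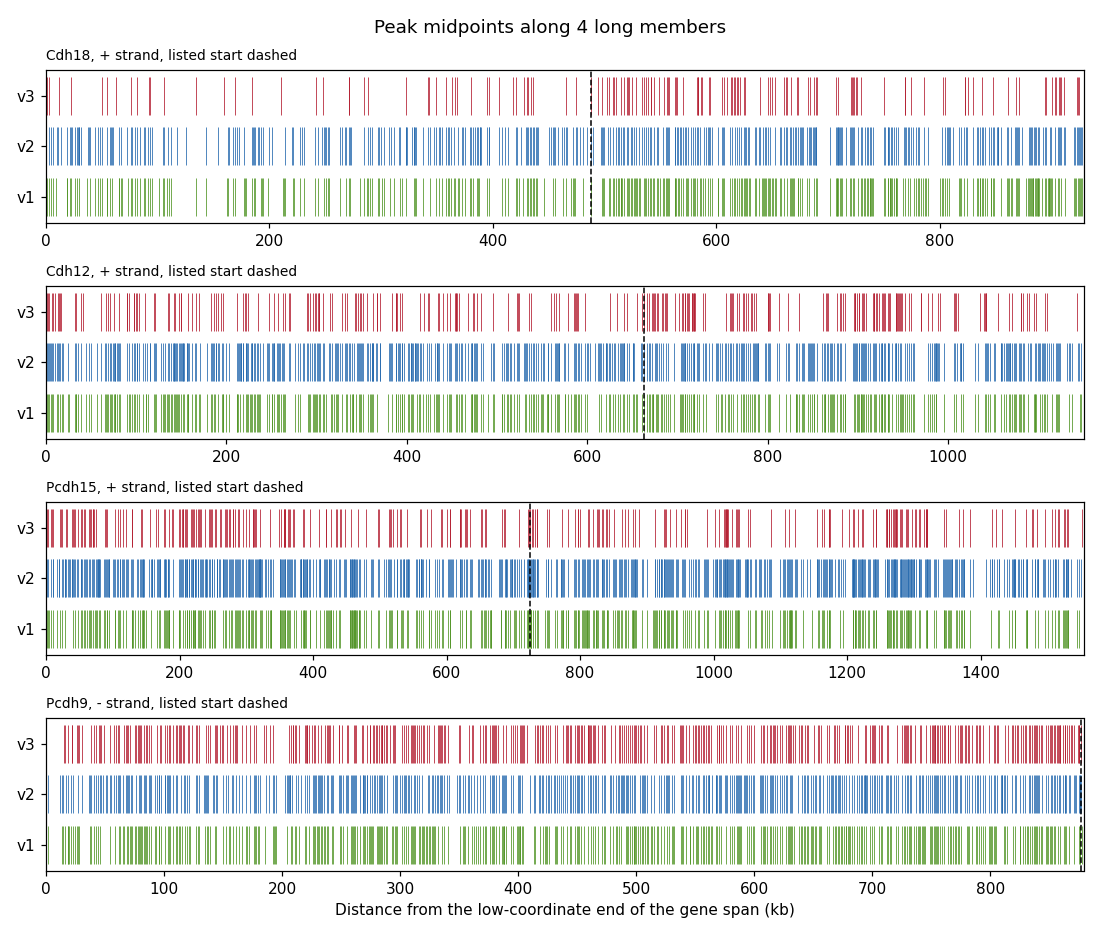
Midpoints of peaks (vertical lines) along the spans of Cdh18, Cdh12, Pcdh15 and Pcdh9, in kb from the low-coordinate end, with v3, v2 and v1 in rows from top to bottom; the dashed line is a listed start. The v3 row of Cdh18 is thin before the start and densest just after it, while the rows of Pcdh9 look alike.

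Partners of the cadherins were open at their ends as well. All 11 genes of the catenin and adaptor list, which links classical cadherins to actin, were open at an end in all 3 lists. Beside each count of open ends here stand 80.6%, 84.8% and 81% of protein-coding genes in v3, v2 and v1. The median density of coding genes of like length was exceeded by 10, 9 and 8 of the 11 genes. The neural alpha-catenin gene Ctnna2 held 450, 661 and 524 peaks and the delta-catenin gene Ctnnd2 held 422, 559 and 476. The fewest were at Jup (plakoglobin), with 14, 20 and 21, and Ctnnb1 (beta-catenin), with 17, 22 and 23. In v3 over v1, the alpha-catenin gene Ctnna1 alone of these 11 was more than 1.5-fold higher, with a log2 ratio of 0.77, and none was lower. Over coding genes 10.6% were higher and 4.47% lower by that fold. Among 21 other cadherin superfamily genes, 21, 21 and 20 had a peak at an end. Of the 17 of them with at least 30 peaks, 1 was more than 1.5-fold higher and 4 lower in v3 over v1, beside the same 10.6% and 4.47% of coding genes. Clstn2, the calsyntenin-2 gene of synapses, held the most peaks (219, 352 and 243), followed by the X-linked delta-1 protocadherin gene Pcdh11x (38, 148 and 73). Pcdh11x lay below the median of coding genes of like length in each library, at 0.0603, 0.235 and 0.116 peaks per kb. Cdhr4 (5, 3 and 5) and Dsg4, a desmosomal gene of hair follicles (1, 12 and 7), held the fewest. Of 10 partners of the tip link or of planar polarity, 9, 10 and 10 had a peak at an end, with the most peaks at Tmc1, the hair cell channel gene (36, 43 and 39), and Yap1 (25, 47 and 33). The fewest were at Fjx1, which encodes a kinase related to four-jointed (3, 2 and 5), and Lhfpl5 (6, 10 and 9).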

How the data were processed

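The authors deposited 1 list of peaks per library, with chromosome, start and end and no score or count; MACS2 and ArchR are named with the build mm10, per the submitters' processing notes. The sources used here do not name the aligner, the versions or the threshold. No peak was under 500 bp, and the lists held 42.2%, 53.1% and 59.8% of peaks at that width in v3, v2 and v1, so nearby insertions can be joined into 1 peak in one list and split in another.

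Gene spans came from the RefSeq table of GRCm38.p6. A peak counted for a gene with 1 bp of overlap with the span plus 5 kb on each side; no windows of 2 members overlapped. Coordinates are 1-based. Share ratios have exact conditional binomial 95% intervals, shares of regions exact Clopper-Pearson intervals, and log2 ratios a pseudocount of 0.5 peaks scaled to the library. Coding genes were put in 6 classes of window length, with edges at 30, 60, 120, 300 and 600 kb. Regions are peaks merged across libraries where they overlap by 1 bp. Overlap counting was checked against direct counts for a sample of genes on the v1 list, and the ratio intervals were tested on simulated counts. Computations used Python 3.11.15, numpy 2.4.6, pandas 2.3.3 and scipy 1.17.1.

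The members and lists were chosen with earlier results of these data known. All members are given; the fullest values went, by rule, to the 3 with the most and the 2 with the fewest peaks in a class, the 2 densest and 2 sparsest per kb, those with no peak at a start, and the 3 with the most extreme share ratios in each direction per pair. Of other lists, the 2 genes with the most and the 2 with the fewest peaks are named. Gene starts were taken from promoter entries where there were any and otherwise as either end of the span, since the gene table gives no strand. Alternatives were gene spans alone, 20 kb flanks, covered bases, peaks wider than 500 bp, equal numbers of peaks, classes without their longest member, a larger pseudocount, 500 bp around starts and a stricter rule for shared regions.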

Additional observations from a re-analysis of the deposited data

How the results depend on the processing

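No paired analysis was possible because each version has 1 library and no result comes from a test. The ratios of peaks per kb between classes stayed within their counting intervals with gene spans alone, 20 kb flanks, covered bases, wider peaks or equal numbers of peaks, and moved in every case when the longest member of each class was left out. Protocadherins over cadherins then stood at 1.754, 1.211 and 1.277 in v3, v2 and v1, and protocadherins over Fat and Dchs genes at 2.235, 1.264 and 1.426. Fat and Dchs genes over cadherins turned round to 0.7846 and 0.9584 in v3 and v2 and stood at 0.8952 in v1. In v3 Cdh13 held 368 of the 1819 cadherin peaks, Pcdh15 285 of 1074 in its class and Fat3 279 of 423. Their densities were 0.308, 0.182 and 0.463 peaks per kb, beside 0.2855, 0.339 and 0.336 over their whole classes. Leaving out the longest members also moved the share ratio of all 20 cadherins in v2 over v1, to 0.8187 from 0.8631. It moved those of protocadherins (0.7765 in v2 over v1, 1.107 in v3 over v1, 1.425 in v3 over v2) and of Fat and Dchs genes (0.7062 in v3 over v1, 0.8058 in v3 over v2). Among peaks wider than 500 bp the ratio of all 20 cadherins in v3 over v2 was 0.9327, against 0.9909 with all peaks.

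Counts of members past 1.5-fold rest on few peaks. In v2 over v1, 1 member was higher by covered bases and 1 among wider peaks, against 0. Among wider peaks, 1 member was higher and 11 lower in v3 over v1, against 0 and 6, and 0 higher in v3 over v2, against 4. There Fat2 stood at 1.01 and Dchs1 at 0.9428, on the other side of 1 from all peaks; the cause was not tested. Of 540 share ratios of single members under alternatives, 534 stayed within their interval. That says little, since the alternatives use the same peak lists and the intervals are wide where peaks are few (0.0364 to 0.652 for Cdh19 in v3 over v1). The percentage of regions in all 3 libraries was 32.89% when each library had to cover at least 50% of a region (cadherins 30.59%, protocadherins 36.74%, Fat and Dchs genes 34.22%) and 27.55% with equal numbers of peaks (26.07%, 29.67% and 29.34%), a fall that a stricter rule or fewer peaks bring by themselves. Unknown depth limits every level set between libraries.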

Other observations

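The longest stretches without a peak in any library lay in the sparse members. In Cdh23 it spanned 26.01 kb (chr10:60498832-60524843), against a mean of 1 region every 3.54 kb of that window. Pcdh15 had an empty stretch of 18.05 kb and Dchs2 one of 16.6 kb. In the small Cdh1 window an empty stretch of 18.0 kb (chr8:106656936-106674894) took 23.35% of the length and ran past the high-coordinate end of the gene. In the dense genes Cdh11 and Cdh2 the longest empty stretches were 2.55 and 3.98 kb.

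Of the 24 members with a listed start, the widest region with a peak in all 3 libraries covered it in Cdh8, Pcdh8, Pcdh10, Pcdh17, Pcdh20 and Fat4. In Cdh18 it spanned 5616 bp (chr15:23166346-23171961), with its centre 132690 bp from the start, and held 2898 bp of v3 peaks, 4795 bp of v2 peaks and 4264 bp of v1 peaks. In Cdh10 it spanned 4823 bp, of which v3 peaks took 4813 bp, v2 peaks 3443 bp and v1 peaks 3154 bp. A merged region is at least as wide as each of its peaks, so its width grows with the library that has the widest peaks there.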
